A study of Mus musculus with 8 samples.

Results

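The 37 genes of cholesterol and fatty acid synthesis were examined in mouse cardiac fibroblasts given transforming growth factor beta 1 (TGF-β1). They comprise the enzymes of both lipid syntheses, the sterol-sensing machinery that controls them, and the nuclear receptors and exporters that act when sterol is in surplus. The genes were taken by name from the 56748 genes of the deposited count table, each matched 1 row, and all 37 were among the 13960 genes with enough counts to be tested. The treated group was 4 cultures of primary fibroblasts from wild-type C57BL/6J hearts, isolated from mice 1 day old and exposed to TGF-β1 at 10 ng/mL during 48 h. The comparison group was 4 cultures of the same origin without TGF-β1. The protocol also names Mirin, an inhibitor of the MRN DNA repair complex, but no library label does. Both groups were grown in medium with fetal bovine serum, which carries lipoproteins, and the series design describes the cultures as coming from different litters. The number of animals pooled for a culture is not stated in the labels.

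The libraries held 14340740 to 17176898 counts, and the 37 genes together took 0.536% to 0.565% of them with TGF-β1 and 0.582% to 0.599% untreated. With TMM scaling, used for every CPM value, their summed level overlapped between groups, at 5508 to 5792 CPM with TGF-β1 and 5706 to 5753 CPM untreated. Untreated replicate 1 stood apart from the rest in ribosomal RNA, which was 0.0322% of its counts against 1.05% to 2.47% elsewhere. Changes in member calls, member counts or signs without it are named. The fibroblast label was met by Col1a1 at 10701 ± 596 CPM with TGF-β1 and 6974 ± 521 CPM untreated (mean ± SD, n = 4 each) and by Vim at 3833 ± 107 CPM with TGF-β1 and 3673 ± 136 CPM untreated. Of 8 fibroblast markers, 2 rose and 5 fell. On the log2 scale (TGF-β1 over untreated) Col1a1 rose by 0.62 and Col1a2 by 0.41, and Vim was not called. The markers that fell were Pdgfra (−1.18), Thy1 (−1.14), Lum (−1.11), Tcf21 (−0.69) and Dcn (−0.39). Cardiomyocyte transcripts were present as well, with Tnnt2 at 298 ± 29.2 CPM with TGF-β1 and 518 ± 22.9 CPM untreated. CPM are counts scaled to a common library size with TMM factors. The summed level of 10 cardiomyocyte markers was 417 to 491 CPM with TGF-β1 and 762 to 837 CPM untreated, and 8 of them fell. The summed level of 10 cell division genes was 46.5 to 58.5 CPM with TGF-β1 and 335 to 365 CPM untreated, and all 10 fell. Because RNA was taken from whole cultures, fewer cells of a type and less RNA per cell cannot be told apart.

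Cells build cholesterol from acetyl-CoA through mevalonate, isoprenoid units and squalene, and then through a long series of steps on the sterol ring. They build fatty acids from the same acetyl-CoA by carboxylation, repeated elongation and desaturation. Transcription of both sets of enzymes is driven by the sterol regulatory element binding proteins (SREBPs), membrane-held factors that SCAP escorts to the Golgi for cleavage when sterol is low and that INSIG proteins retain in the endoplasmic reticulum when sterol is high. The liver X receptors (LXRs) sense oxidised sterols and turn on the export of cholesterol. Dividing cells need new membrane and are known to draw on these pathways.

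The start regions of 5 of the genes are shown because they belong to the members with the most firmly measured falls: the 3 lowered sterol enzymes with the smallest p-values among those in the promoter table, followed by the lowered desaturase gene Fads2 and the lowered exporter gene Abca1. Each sequence runs 5′ to 3′ on the strand of its gene from 250 bases before to 50 bases after the start site and comes from RefSeq on the GRCm38.p6 build. Capitals mark the sterol regulatory element core TCACNCCAC and the CCAAT box, each in either orientation, so that a CCAAT box on the opposite strand appears as ATTGG. The windows are chr10:76531355-76531654 (plus strand) for Lss, chr13:119690101-119690400 (plus) for Hmgcs1, chr1:169969156-169969455 (minus) for Hsd17b7, chr19:10101454-10101753 (minus) for Fads2 and chr4:53159846-53160145 (minus) for Abca1.
Lss: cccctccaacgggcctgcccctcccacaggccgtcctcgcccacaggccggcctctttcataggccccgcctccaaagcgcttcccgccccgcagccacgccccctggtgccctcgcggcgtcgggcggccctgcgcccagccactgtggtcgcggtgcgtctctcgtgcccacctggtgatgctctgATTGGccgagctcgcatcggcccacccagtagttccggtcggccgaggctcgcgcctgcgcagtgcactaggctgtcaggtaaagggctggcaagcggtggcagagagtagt
Hmgcs1: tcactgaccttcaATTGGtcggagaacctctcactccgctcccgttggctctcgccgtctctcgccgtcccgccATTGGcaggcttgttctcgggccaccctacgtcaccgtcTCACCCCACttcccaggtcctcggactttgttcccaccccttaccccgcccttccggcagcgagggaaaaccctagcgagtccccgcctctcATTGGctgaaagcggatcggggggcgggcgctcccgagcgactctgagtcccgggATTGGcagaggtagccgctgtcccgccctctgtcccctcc
Hsd17b7: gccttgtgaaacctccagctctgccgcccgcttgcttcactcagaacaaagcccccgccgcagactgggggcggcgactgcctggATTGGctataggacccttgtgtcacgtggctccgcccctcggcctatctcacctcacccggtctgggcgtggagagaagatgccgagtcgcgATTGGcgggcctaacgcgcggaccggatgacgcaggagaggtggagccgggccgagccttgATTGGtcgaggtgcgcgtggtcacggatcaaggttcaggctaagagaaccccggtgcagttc
Fads2: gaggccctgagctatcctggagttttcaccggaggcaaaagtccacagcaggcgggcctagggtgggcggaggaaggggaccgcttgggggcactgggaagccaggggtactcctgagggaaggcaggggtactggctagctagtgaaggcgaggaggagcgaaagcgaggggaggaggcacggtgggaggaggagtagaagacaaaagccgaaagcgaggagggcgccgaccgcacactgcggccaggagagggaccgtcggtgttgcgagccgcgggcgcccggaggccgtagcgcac
Abca1: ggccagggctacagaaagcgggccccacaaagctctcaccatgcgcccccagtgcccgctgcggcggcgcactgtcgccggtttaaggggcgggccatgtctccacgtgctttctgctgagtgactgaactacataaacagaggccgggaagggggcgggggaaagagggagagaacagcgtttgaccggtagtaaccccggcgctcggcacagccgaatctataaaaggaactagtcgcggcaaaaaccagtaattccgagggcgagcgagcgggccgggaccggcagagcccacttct
The Hmgcs1 window holds the sterol element and 4 CCAAT boxes, Hsd17b7 holds 3 CCAAT boxes and Lss holds 1. The Fads2 and Abca1 windows hold neither, so no letters are in capitals there.

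With TGF-β1, the enzymes that make cholesterol fell modestly along most of the pathway, while most fatty acid enzymes did not pass the test. Of the 18 mevalonate and sterol enzymes 11 fell and none rose (called at an adjusted p below 0.05 in edgeR's quasi-likelihood test over all genes), while 18.5% of all tested genes fell and 17.6% rose. A log2 fold change below 0 was found for 15 of the 18. Of the 8 fatty acid enzymes, 2 rose and 1 fell. The 6 genes of SREBP control and sterol transport and the 5 genes of the LXR group had 2 falls each and no rise. Over all 37 genes 2 rose and 16 fell, or 5.41% and 43.2%. Without TGF-β1 replicate 1, 4 members rose, and without TGF-β1 replicate 3, 2 fatty acid enzymes fell. Without TGF-β1 replicate 1 or 4, 2 of the 11 SREBP control and LXR genes fell.

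The changes were small. The median log2 fold change (TGF-β1 over untreated) was −0.20 for the 18 sterol path enzymes, 0.01 for the fatty acid enzymes and −0.14 for all 37, against 0.01 for all genes tested. A change of at least 1.5-fold was reached by 2 of the 37 genes, Pmvk and Nr1h3, both lower. In the whole table, 8.36% of genes fell and 2.83% rose by that much. All TGF-β1 libraries lay below all untreated ones for 16 of the 37 genes and above them for 2, against 17.4% and 16.5% of all tested genes. With plain library totals in place of TMM scaling, 2 members rose and 20 fell, and the genes called over the whole table were 1301 higher and 3673 lower, against 2451 and 2579. The added falls were Idi1, Fdft1, Elovl6 and Insig2 (edgeR adjusted p = 0.00737, 0.00618, 0.0182 and 0.0328).

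**Figure D1:**
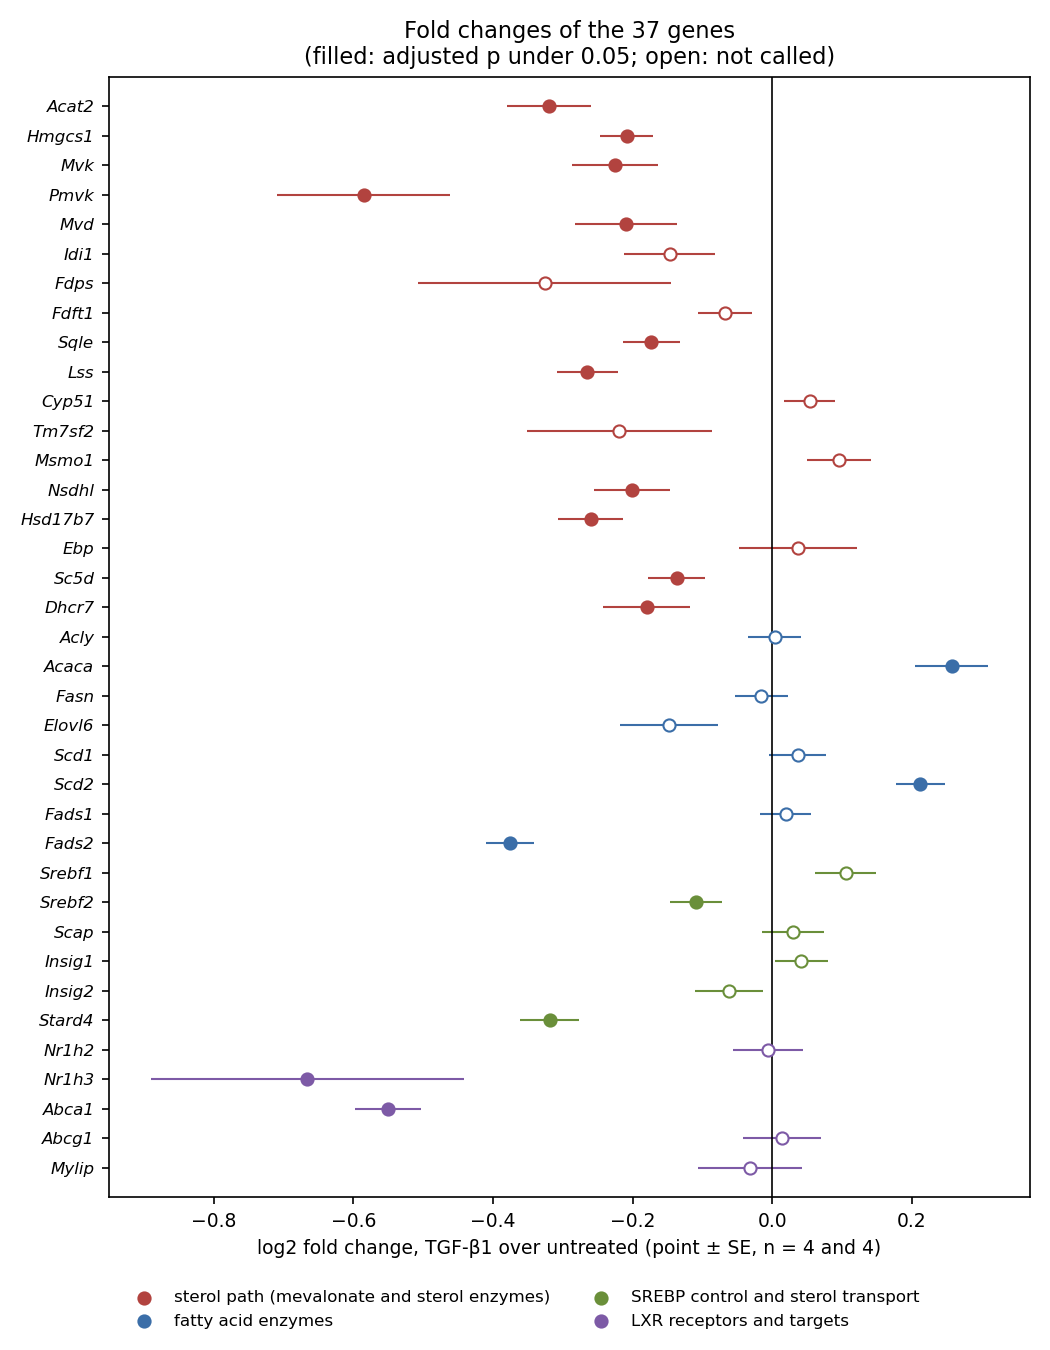
Log2 fold change (TGF-β1 over untreated, horizontal axis) of each of the 37 genes with its SE, ordered by pathway role; filled points passed the test. The sterol path enzymes at the top lie mostly left of 0, with Pmvk at −0.59, while the fatty acid enzymes spread from Fads2 at −0.38 to Acaca at 0.26.

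**Figure D2:**
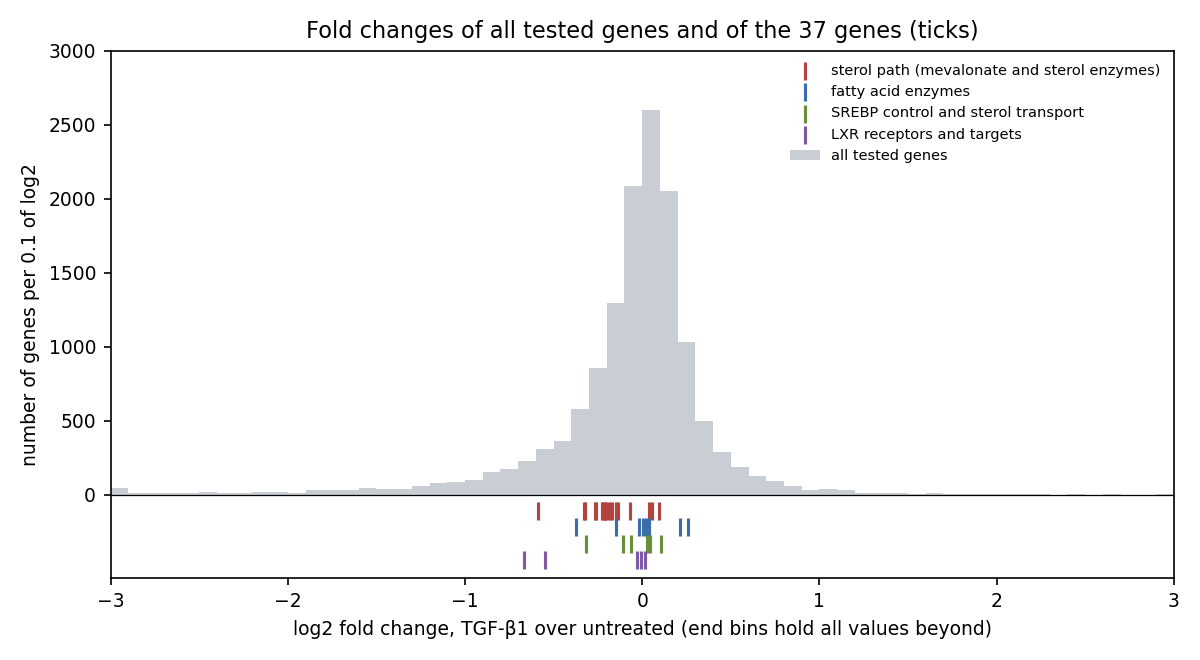
Number of tested genes per 0.1 of log2 fold change (grey bars, end bins hold all values beyond) with the 37 genes drawn as ticks below, 1 row for each role. The ticks lie between −0.67 and 0.26, and those of the sterol path are mostly left of the peak of all genes.

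The early steps lead from acetyl-CoA to the isoprenoid units. Acat2, the cytosolic thiolase that joins acetyl-CoA units, fell by 0.32 ± 0.06 on the log2 scale (SE, edgeR adjusted p = 0.000191). Hmgcs1, which makes HMG-CoA, was at 180.4, 179, 182 and 193 CPM in the TGF-β1 libraries, against 213, 212, 206 and 217 CPM in the untreated ones. The groups did not overlap, and the log2 fold change was −0.21 ± 0.04 (edgeR adjusted p = 0.000137). The 3 enzymes that phosphorylate and decarboxylate mevalonate also fell, namely Mvk (−0.22 ± 0.06), Pmvk (−0.59 ± 0.12) and Mvd (−0.21 ± 0.07). Pmvk, the phosphomevalonate kinase gene, was at 11.9, 11.7, 8.37 and 11.0 CPM in the TGF-β1 libraries, against 14.3, 15.3, 14.4 and 20.4 CPM in the untreated ones. All 4 treated values lay below all 4 untreated ones, and untreated replicate 4 was the highest by a wide gap. Without that library the log2 fold change of Pmvk was −0.45 below 1.5-fold (edgeR adjusted p = 0.00522). For Mvd the TGF-β1 and untreated libraries overlapped, and its call was lost without untreated replicate 2, TGF-β1 replicate 3 or TGF-β1 replicate 4 (edgeR adjusted p = 0.117, 0.0595 and 0.113).

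The isoprenoid enzymes Idi1, which isomerises isopentenyl diphosphate, and Fdps, which makes farnesyl diphosphate, were not called. The log2 fold change of Idi1 was −0.15 ± 0.07 (edgeR adjusted p = 0.0859), and without untreated replicate 1 it was −0.20 with an adjusted p of 0.021. That of Fdps was −0.33 ± 0.18 (edgeR adjusted p = 0.172) at 35 to 79 counts per library, with all treated libraries below all untreated ones. Both counts are uncertain, because near-identical copies lie elsewhere in the GRCm39 genome. Spliced alignment found 4 other loci for Fdps, the best covering 54.4% of the transcript at 98.7% identity, and 3 for Idi1, the best covering 81.9% at 99.9%. Acat2 has a relative on the same chromosome that matched 67.9% of its transcript at 97.2% identity, so its count carries the same doubt. The labels do not say how reads with several matches were counted.

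The entry into sterol synthesis proper runs through Fdft1, Sqle and Lss, which make squalene, oxidise it and close the sterol ring. Fdft1 (squalene synthase) had a log2 fold change of −0.07 ± 0.04 and was not called (edgeR adjusted p = 0.19). Sqle, the squalene epoxidase and a flux-limiting step, was at 113, 123, 116 and 115 CPM in the TGF-β1 libraries, against 130.5, 133, 127 and 136 CPM in the untreated ones. Its groups did not overlap, and the log2 fold change was −0.17 ± 0.04 (edgeR adjusted p = 0.0017). Lss, the lanosterol synthase, averaged 64.2 ± 1.95 CPM with TGF-β1 and 77.2 ± 1.21 CPM untreated (SD, n = 4 each), a log2 fold change of −0.26 ± 0.04 (edgeR adjusted p = 4.83e-05). This was the smallest p among the 18 sterol path enzymes. Lss lies on chromosome 10, 76367422 to 76392972, plus strand in GRCm39.

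The enzymes that trim and reshape the sterol ring divided. Those that fell were Nsdhl (−0.20 ± 0.05) and Hsd17b7 (−0.26 ± 0.05), which act in removing the methyl groups at carbon 4, Sc5d (−0.14 ± 0.04), the C5 desaturase, and Dhcr7 (−0.18 ± 0.06), which reduces 7-dehydrocholesterol. Cyp51, the lanosterol demethylase, and Msmo1, the C4 methyl sterol oxidase that acts just before Nsdhl, had log2 fold changes above 0. Cyp51 was at 0.05 ± 0.04 and Msmo1 at 0.10 ± 0.05 (edgeR adjusted p = 0.269 and 0.109), with 95% intervals of −0.02 to 0.13 and 0.00 to 0.19. Neither interval reached down to the values of Nsdhl or Hsd17b7. Without TGF-β1 replicate 1, Msmo1 was called as higher (edgeR adjusted p = 0.0444). Ebp, the sterol isomerase, and Tm7sf2, the C14 reductase, were not called (log2 fold changes 0.04 ± 0.08 and −0.22 ± 0.13). Tm7sf2 passed as lower without TGF-β1 replicate 3, its highest treated library (edgeR adjusted p = 0.0475). The Dhcr7 call is weak, since the groups overlapped and it was lost without each of untreated replicates 2, 3 and 4 and TGF-β1 replicates 1 and 3 (edgeR adjusted p between 0.0606 and 0.103). Testing FPKM with limma lost it too, with pseudocounts of 1 and 0.1 giving limma adjusted p = 0.068 and 0.0662. The summed level of the 18 sterol path genes was 1266 to 1325 CPM with TGF-β1 and 1401 to 1438 CPM untreated. The cell division genes fell in the same libraries, and their part in the fall of the sterol enzymes was not tested.

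**Figure D3:**
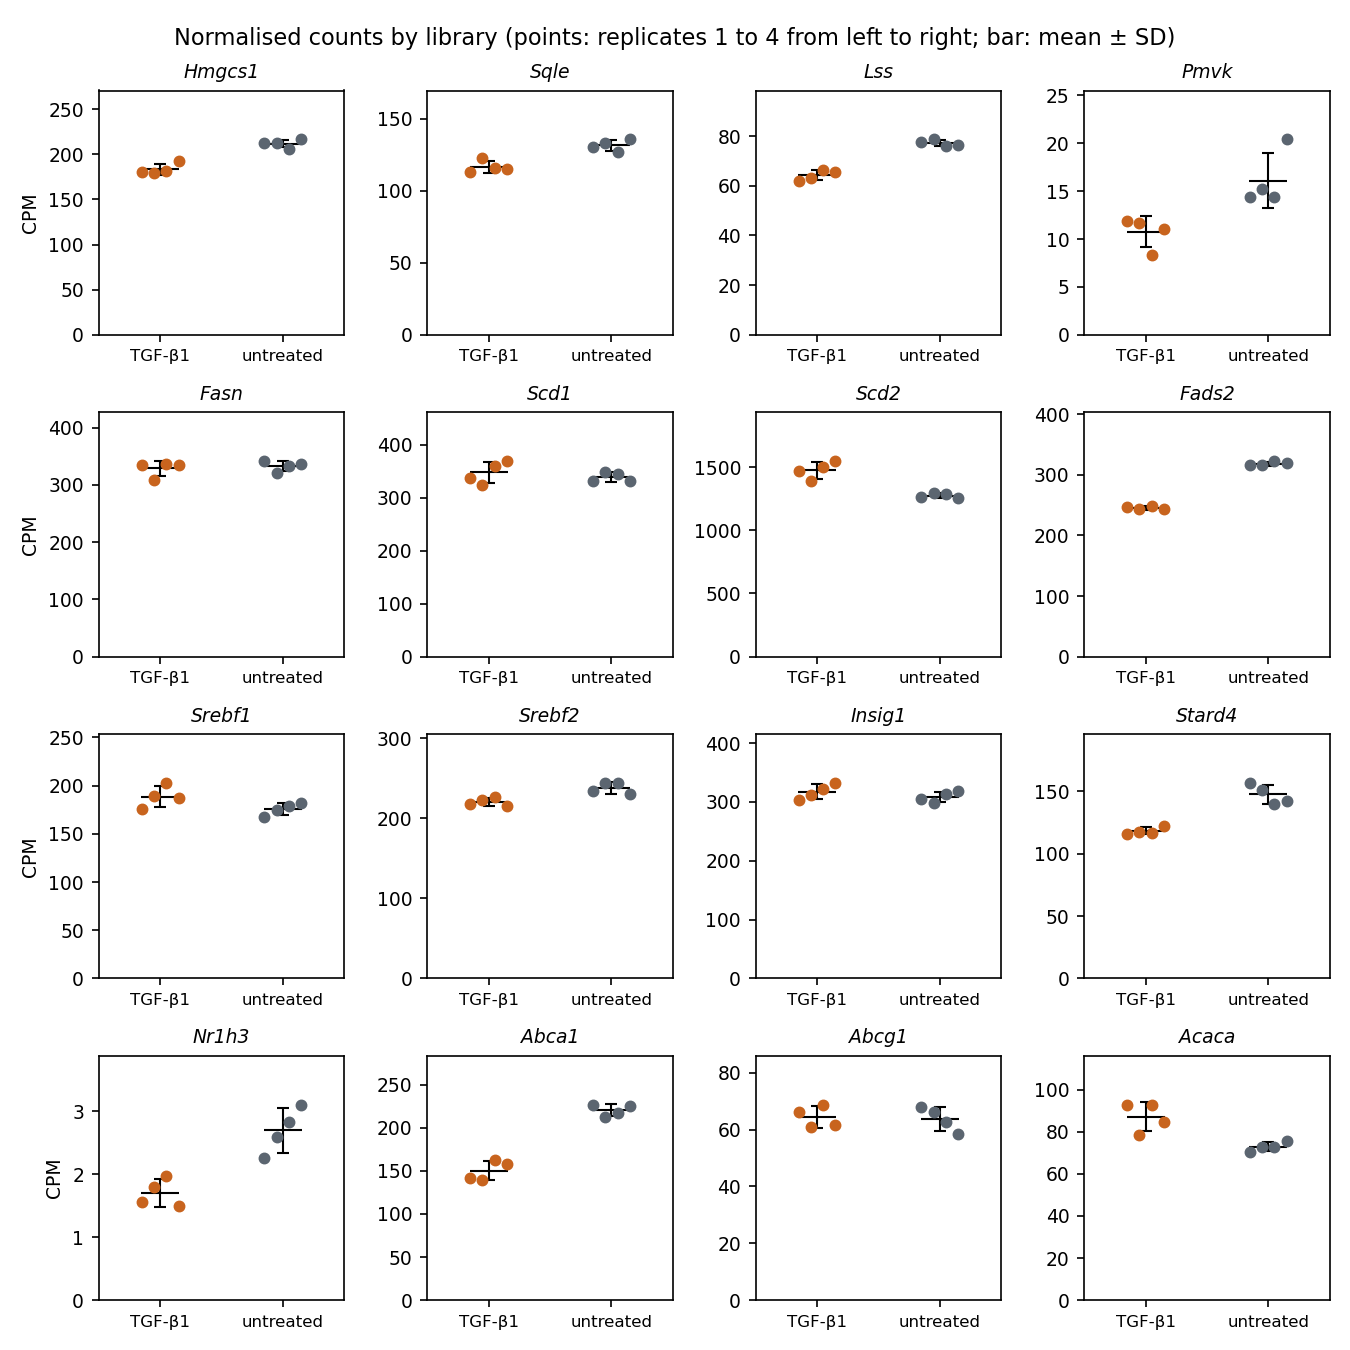
TMM-scaled CPM (vertical axis from 0) of 16 of the genes in each library, with TGF-β1 left of untreated and the mean ± SD as a bar (n = 4 each). Fads2, Abca1, Stard4, Lss and Scd2 show separated groups, whereas Fasn, Scd1, Insig1 and Abcg1 overlap.

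Fatty acid synthesis starts from citrate-derived acetyl-CoA. Acly, the ATP citrate lyase, averaged 246 ± 9.04 CPM with TGF-β1 and 245 ± 4.84 CPM untreated (SD, n = 4 each) and was not called (edgeR adjusted p = 0.958). Acaca, the acetyl-CoA carboxylase that commits carbon to fatty acids, rose by 0.26 ± 0.05 on the log2 scale (edgeR adjusted p = 0.000421). A copy on chromosome 12 matches 85.0% of the Acaca transcript at 99.5% identity, so that count is uncertain. Fasn, the fatty acid synthase, was at 335, 309, 337 and 336 CPM in the TGF-β1 libraries, against 342, 320.1, 334 and 336 CPM in the untreated ones. The groups overlapped, and the 95% interval of its log2 fold change was −0.10 to 0.06. Elovl6, which lengthens palmitate, had a log2 fold change of −0.15 ± 0.07 (edgeR adjusted p = 0.108), and it was called as lower without TGF-β1 replicate 3 (adjusted p = 0.0395).

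The desaturases come as 2 pairs of related genes that lie close together on chromosome 19, and the members of each pair differed. Scd2, a stearoyl-CoA desaturase (44282113 to 44295303, plus strand), was at 1466, 1388, 1503 and 1547 CPM in the TGF-β1 libraries, against 1265, 1294, 1288 and 1251 CPM in the untreated ones. Every treated library was above every untreated one, and the log2 fold change was 0.21 ± 0.04 (edgeR adjusted p = 5.06e-05). Scd1, its relative at 44382894 to 44396318 on the minus strand, was at 338, 324, 359.9 and 369 CPM in the TGF-β1 libraries, against 332, 349, 344 and 332 CPM in the untreated ones. These groups overlapped, and the 95% interval of the log2 fold change was −0.05 to 0.12. Fads2, the delta-6 desaturase of polyunsaturated fatty acids (10040129 to 10079110, minus strand), was at 246, 243, 249 and 243 CPM in the TGF-β1 libraries, against 316, 316, 322 and 319 CPM in the untreated ones. The groups were far apart for their spread, and the log2 fold change of −0.38 ± 0.03 had an adjusted p of 7.16e-09 (edgeR). Fads1, the delta-5 desaturase next to it, averaged 299.9 ± 4.74 CPM with TGF-β1 and 296 ± 10.7 CPM untreated (SD, n = 4 each) and was not called (edgeR adjusted p = 0.728).

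The differences within pairs were described by the ratio of the 2 FPKM values in each library, for 4 pairs chosen after their values were seen. An exact two-sided permutation test ran over the 70 ways to assign 4 libraries to each group. Because of that choice its p-values, also after adjustment over the 4 pairs, only describe how the groups separate. They are not independent support for a difference. The Scd2 over Scd1 ratio was 3.80 ± 0.0697 with TGF-β1 and 3.37 ± 0.0393 untreated (SD, n = 4 each, exact p = 0.0286, adjusted over 4 pairs 0.0381). The Fads2 over Fads1 ratio was 1.19 ± 0.0209 with TGF-β1 and 1.57 ± 0.0535 untreated (exact p = 0.0286, adjusted 0.0381). In both pairs no treated library overlapped an untreated one, and 0.0286 is the smallest p this design allows. The same held for the SREBP genes, where Srebf2 over Srebf1 was 0.918 ± 0.0411 with TGF-β1 and 1.06 ± 0.0496 untreated (exact p = 0.0286, adjusted 0.0381). Insig1 over Insig2 was 6.97 ± 0.208 with TGF-β1 and 6.49 ± 0.265 untreated and did not pass (exact p = 0.0571, adjusted 0.0571).

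Of the factors that control these enzymes, Srebf2, which encodes the SREBP that mainly drives cholesterol genes, was at 218, 222, 226 and 215 CPM in the TGF-β1 libraries, against 234, 243, 244 and 229.7 CPM in the untreated ones. The groups did not overlap, and the log2 fold change was −0.11 ± 0.04 (edgeR adjusted p = 0.0247). That call was lost without untreated replicate 2 or 3, without TGF-β1 replicate 1 or 4 and with no count filter (edgeR adjusted p between 0.0577 and 0.0818). Srebf1, which encodes the SREBP that mainly drives fatty acid genes, was at 176, 189, 203 and 187 CPM in the TGF-β1 libraries, against 167, 174, 179 and 182 CPM in the untreated ones. The groups overlapped and the gene was not called, at a log2 fold change of 0.10 ± 0.04 (edgeR adjusted p = 0.0687), but it passed as higher without TGF-β1 replicate 1 and with the replicate number as a block (adjusted p = 0.0202 and 0.0497).

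Scap, the escort protein gene, and Insig1 and Insig2, the genes of the retention proteins, were not called, with log2 fold changes of 0.03 ± 0.05, 0.04 ± 0.04 and −0.06 ± 0.05. Insig1, itself a strong SREBP target, was at 303, 312, 322 and 332 CPM in the TGF-β1 libraries, against 304, 298, 313 and 318 CPM in the untreated ones. Its groups overlapped, and the 95% interval of −0.04 to 0.12 did not reach the value of Hmgcs1 or Sqle. Nearly the whole Insig1 transcript (98.7%) matches a copy on chromosome 3 at 97.6% identity, so its count is uncertain. Stard4, which encodes a soluble carrier of cholesterol between membranes and is an SREBP2 target, averaged 118 ± 2.81 CPM with TGF-β1 and 148 ± 7.83 CPM untreated (SD, n = 4 each). It fell by 0.32 ± 0.04 on the log2 scale without overlap between groups (edgeR adjusted p = 2.96e-06).

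In the LXR group the sterol exporter Abca1 changed most firmly of all 37 genes. Abca1, which encodes the transporter that loads cholesterol onto apolipoprotein A-I (chromosome 4, 53030787 to 53159895, minus strand), was at 142, 139, 162 and 157 CPM in the TGF-β1 libraries, against 227, 212, 217 and 225 CPM in the untreated ones. The highest treated library stood well below the lowest untreated one, and the log2 fold change was −0.55 ± 0.05 (edgeR adjusted p = 2.91e-09). Abcg1, the exporter gene that passes cholesterol to mature lipoproteins and is also an LXR target, was at 66.2, 61.0, 68.8 and 61.5 CPM in the TGF-β1 libraries, against 67.9, 66.2, 62.6 and 58.3 CPM in the untreated ones. These groups overlapped, and the 95% interval of its log2 fold change, −0.10 to 0.13, lay apart from that of Abca1, −0.65 to −0.45. Mylip, an LXR target that encodes a ubiquitin ligase, had a log2 fold change of −0.03 ± 0.07 and was not called (edgeR adjusted p = 0.783).

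Of the receptors, Nr1h2 (LXRβ) averaged 82.2 ± 3.48 CPM with TGF-β1 and 82.5 ± 5.36 CPM untreated (SD, n = 4 each) and was not called (edgeR adjusted p = 0.942). Nr1h3 (LXRα) was at 1.55, 1.80, 1.97 and 1.49 CPM in the TGF-β1 libraries, against 2.26, 2.59, 2.83 and 3.10 CPM in the untreated ones. All treated values lay below the untreated ones, at only 22 to 52 counts per library, and the log2 fold change was −0.67 ± 0.22 (edgeR adjusted p = 0.0237). This call was lost without untreated replicate 4 or TGF-β1 replicate 1 or 4 (edgeR adjusted p = 0.08, 0.0532 and 0.0584), and on the log2(FPKM + 1) scale, which understates low genes, the change was −0.30. Macrophages are known to express Nr1h3, Abca1 and Abcg1. The summed level of 10 macrophage markers was 166 to 200.5 CPM with TGF-β1 and 183 to 224 CPM untreated, of which 1 of 9 tested rose and 2 fell, with Ptprc, which was not called, at 2.21 ± 0.172 CPM with TGF-β1 and 2.76 ± 0.559 CPM untreated. Mrc1 was at 0.793 ± 0.261 CPM with TGF-β1 and 2.95 ± 0.630 CPM untreated (log2 fold change −1.89 ± 0.28, edgeR adjusted p = 1.25e-05), Lyz2 also fell (−0.18 ± 0.05), and Adgre1 rose (0.68 ± 0.22, edgeR adjusted p = 0.0208). The epicardial and mesothelial markers summed to 812 to 843 CPM with TGF-β1 and 1046 to 1106 CPM untreated, and 3 of 6 fell. Of 7 adipocyte markers Adipoq and Cidec were at 0 in every library, and the list summed to 11.6 to 14.7 CPM with TGF-β1 and 12.2 to 14.6 CPM untreated. The mural markers summed to 1161 to 1259 CPM with TGF-β1 and 1059 to 1094 CPM untreated, with 3 of 5 tested rising, among them Rgs5 (2.42 ± 0.25) and Cspg4 (1.60 ± 0.08), and 1 falling. The endothelial markers summed to 58.2 to 64.8 CPM with TGF-β1 and 61.7 to 63.5 CPM untreated, with 2 of 6 tested rising and 2 falling, and 1 of 2 tested Schwann cell markers fell. The part of these markers in the results was not tested.

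A further list of 43 genes of sterol and lipid synthesis, uptake, storage and LXR signalling had no common direction. Of its 39 tested genes 10 rose and 14 fell, with a median log2 fold change of 0.04. In its sterol section 7 of 21 rose and 8 fell. The 3 largest called changes were Ch25h, which makes the oxysterol 25-hydroxycholesterol (2.44 ± 0.475 CPM with TGF-β1 and 8.42 ± 0.383 CPM untreated, log2 fold change −1.77 ± 0.16), the oxysterol hydroxylase gene Cyp7b1 (−1.41 ± 0.34, below 2 CPM in both groups) and the phosphatidate phosphatase gene Lpin1 (−0.76 ± 0.09). In the LXR section Scarb1, a lipoprotein receptor gene, and Rxra, the partner receptor of the LXRs, fell (−0.40 ± 0.05 and −0.25 ± 0.04), and no gene rose. Scarb1 and Rxra were named after their values were seen.

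Levels between genes were compared per gene length, on the authors' FPKM scale. Scd2 was the most abundant of the 37 genes at 266 ± 11.8 FPKM with TGF-β1 and 229 ± 3.20 FPKM untreated (SD, n = 4 each), which ranked it 134 of 13960 tested genes with TGF-β1 and 149 untreated. Insig1 (101 ± 3.93 FPKM with TGF-β1 and 98.0 ± 2.87 FPKM untreated) and Fads2 (73.2 ± 0.830 FPKM with TGF-β1 and 95.0 ± 0.902 FPKM untreated) followed in both groups. Untreated, the levels of Insig1 and Fads2 differed by about their spread, and Scd1 came next at 69.9 ± 4.05 FPKM with TGF-β1 and 68.2 ± 1.65 FPKM untreated. With TGF-β1, Fads2 and Scd1 lay within their spread of each other. Hmgcs1 and Cyp51 led the sterol path in both groups, Hmgcs1 at 39.3 ± 1.29 FPKM with TGF-β1 and 45.4 ± 1.03 FPKM untreated and Cyp51 at 41.6 ± 0.501 FPKM with TGF-β1 and 40.1 ± 0.799 FPKM untreated, so Cyp51 was first with TGF-β1 and Hmgcs1 in untreated cells. The means of Srebf1 and Srebf2 also changed places. Srebf1 was at 32.9 ± 1.91 FPKM with TGF-β1 and 30.6 ± 1.13 FPKM untreated, and Srebf2 at 30.2 ± 0.684 FPKM with TGF-β1 and 32.6 ± 0.917 FPKM untreated. In untreated replicate 4 the Srebf2 over Srebf1 ratio was 0.992, so Srebf2 did not lead in every untreated library. Tm7sf2, Fdps and Nr1h3 were the lowest, between 0.666 and 1.56 FPKM with TGF-β1 and between 1.05 and 1.81 FPKM untreated. The counts of Fdps and Insig1 are uncertain because of their genome copies, so their places in this order are uncertain too.

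**Figure D4:**
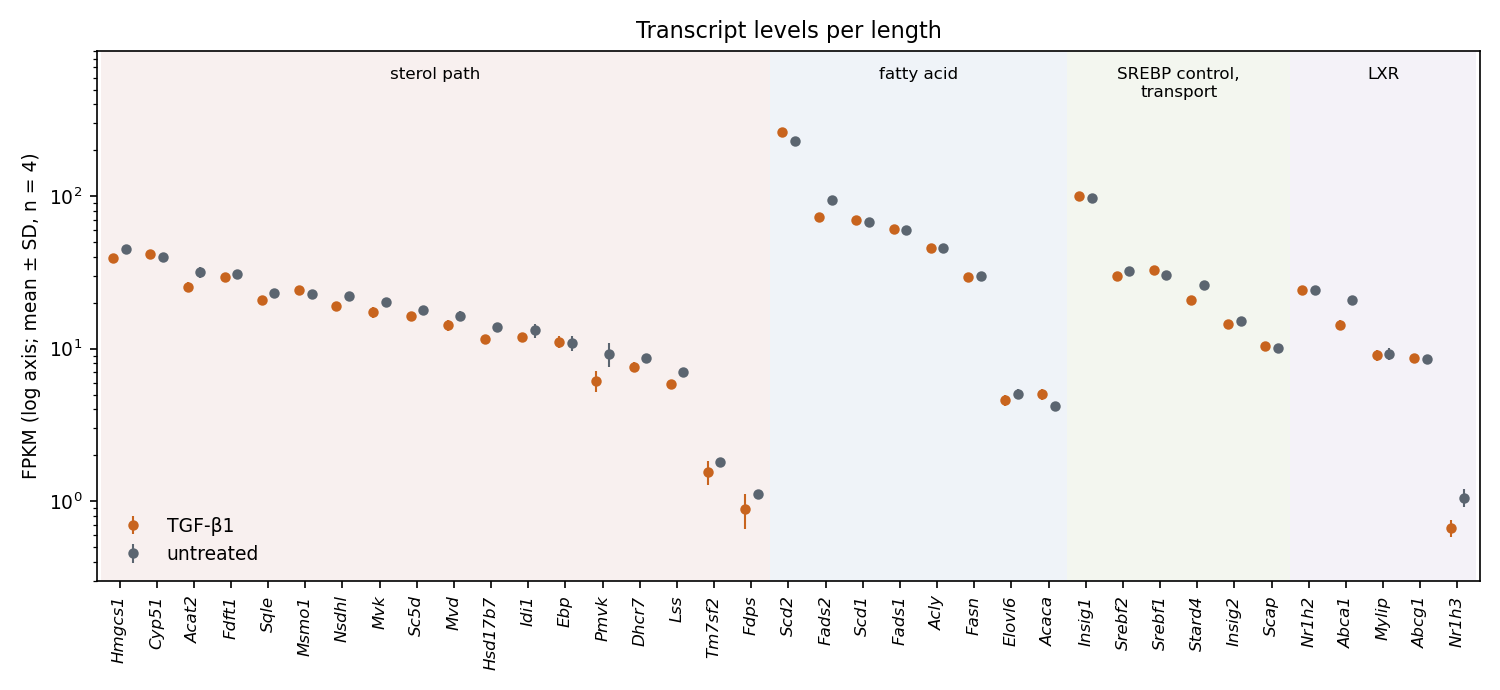
FPKM (log axis, mean ± SD, n = 4) of the 37 genes in TGF-β1 (orange, left) and untreated (grey, right) cultures, sorted within each role by the untreated level. Levels run from about 1 FPKM for Fdps and Nr1h3 to over 200 FPKM for Scd2, and most paired points lie close to each other. The levels of Fdps and Insig1 are uncertain because of their genome copies.

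Cultures of a group varied little. The median deviation of the 18 sterol path genes from their group mean was −0.0342 to 0.0283 on the log2 scale over the TGF-β1 libraries and −0.0352 to 0.0106 over the untreated ones. Both ranges are narrow beside the median fold change of −0.20. For the 8 fatty acid genes the deviations were −0.0712 to 0.0313 and −0.0128 to 0.00968, with TGF-β1 replicate 2 the lowest. For the 5 LXR genes they were wider, at −0.0748 to 0.0964 and −0.0669 to 0.0566. Over all tested genes the median deviations were −0.0028 to 0.0062 with TGF-β1 and 0.00072 to 0.0016 untreated. TMM scaling and a median over so many genes hold these near 0, while medians over few genes spread more. The widths therefore do not rank the sets by how much they varied. Whether the members varied together between cultures was not tested.

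Some members share exon sequence with neighbouring genes in the GRCm39 annotation (GENCODE M39), and without a stated strand setting reads there cannot be told apart. The shared part of the exons was at least 10% for 8 members, namely 28.3% for Cyp51 (with Akap9 and 2 predicted genes), 24.8% for Fdft1 (with Ctsb), 20.5% for Mvd, 15.8% for Fads1, 12.0% for Hmgcs1, 10.8% for Tm7sf2, 10.7% for Srebf2 and 10.0% for Scap. Tm7sf2 shares it with Vps51 on the same strand, where a strand setting would not part the reads. Copies elsewhere in the genome were also found for Fdft1 and Elovl6, 1 each, so those counts are uncertain too.

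In their start regions, most sterol path genes held CCAAT boxes and GC boxes, and Hmgcs1 also held a sterol element of the exact form searched. A RefSeq promoter window was at hand for 29 of the 37 genes and 15 of the 18 sterol path genes, several windows for some. CCAAT was found in at least 1 window of 14 of these 15 genes (93.3%) and the GC box GGGCGG in 14 (93.3%). In all 27025 genes of the table, which is not limited to tested genes, the shares were 41.1% and 38.2%. The boxes were not particular to the sterol path. Of 5 SREBP control and transport genes with a window, 4 held CCAAT and 5 the GC box. Of 5 fatty acid genes 2 held CCAAT and 2 the GC box, and of 4 LXR genes 1 and 2 did. The core TCACNCCAC was in 1 of the 29 genes, Hmgcs1. That is 1 of the 15 sterol path genes (6.67%), against 1.44% of all genes. The core is a longer string than the boxes and is rarer in all genes, so their shares cannot be set against each other. Both strands were searched, and no match of one motif shared bases with a match of another in these windows. The boxes did not separate the members by call, since CCAAT was in 10 of 14 lowered and 11 of 14 uncalled genes. A match is a string of letters and does not show that a factor binds there.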

How the data were processed

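Polyadenylated RNA of 8 fibroblast cultures was sequenced. Per the submitters' processing notes the tools were CASAVA, HISAT2, featureCounts and Subread, with no versions or strand setting given in the sources used here. The authors deposited whole-number read counts per gene, not normalized. They also deposited FPKM values, which are proportional to count over gene length within a library. The notes name GRCm38 and the series design mm39. The file's coordinates overlapped the same gene in the GRCm39 annotation for 37 of 37 members and in GRCm38 for 5, so they are read as GRCm39, while promoter windows are GRCm38.p6.

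Genes were kept by filterByExpr (minimum count 10, minimum total 15), scaled with TMM and tested with the edgeR 4.0.16 quasi-likelihood test (R 4.3.3, limma 3.58.1), two-sided, with group as the only term and Benjamini-Hochberg adjustment over 13960 genes. CPM are counts over the TMM-scaled total. Each SE was taken as |log2 fold change| divided by √F, and 95% intervals use the degrees of freedom of the fit. The common biological variation was 6.27%. On counts simulated for these 13960 genes, the test recovered 44% of genes changed by 1.25-fold, 76% at 1.5-fold and 90% at 2-fold, and called 5 unchanged genes. Within the simulation, smaller changes were thus missed more often than larger ones. Far fewer genes were changed there than the 5030 called in the data, and they were drawn at random over all levels. These rates therefore need not hold for the members. Other genome copies were found by aligning each member's longest coding transcript to GRCm39 with minimap2 2.31-r1302, counting matches over at least 30% of the transcript at 90% identity or more.

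The members and lists were chosen with earlier results of these data known. Every member is reported, with values per library for those at 1.5-fold or more and for 10 central genes, and for Fads2, chosen after its values were seen. Of the further 43 genes, the called ones at 1.5-fold or more are named, and some genes of that list are not reported here. Alternatives were other scalings (RLE, upper quartile, library totals), other count filters, DESeq2 1.42.0, limma with pseudocounts of 1 and 0.1 added to FPKM before log2, the replicate number as a block, no ribosomal RNA genes and each library left out. A bound of 1.5-fold was added after seeing the data. A planned comparison of paralogous proteins was not run.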

Additional observations from a re-analysis of the deposited data

Results flagged for a closer look

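The values of each member within each group of 4 libraries were examined for 1 library standing far from the other 3 relative to the range of the group. Of 74 such groups 5 passed Dixon's 95% critical value, which chance alone passes in about 1 in 20 groups. Pmvk was highest in untreated replicate 4, at 20.4 CPM against 14.3 to 15.3 CPM in the other 3 libraries of its group. Tm7sf2 was highest in TGF-β1 replicate 3, at 8.80 CPM against 6.20 to 6.57 CPM in the other 3 libraries of its group. Hsd17b7 was lowest in untreated replicate 3, at 68.0 CPM against 72.9 to 73.8 CPM in the other 3 libraries of its group. Ebp was highest in untreated replicate 1, at 29.8 CPM against 23.4 to 24.5 CPM in the other 3 libraries of its group. Fasn was lowest in TGF-β1 replicate 2, at 309 CPM against 335 to 337 CPM in the other 3 libraries of its group. These 5 values fell in 5 different libraries.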

How the results depend on the processing

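Of the 18 called members, 14 kept their call and direction under all 18 alternatives, and the other 4 are Mvd, Dhcr7, Srebf2 and Nr1h3. With library totals the members' median log2 fold change was −0.22, 2 fatty acid enzymes fell, and 1301 genes of the whole table rose, where the median of all genes also moved by −0.081. Members that changed sign with library totals were Cyp51 (−0.027), Ebp (−0.044), Acly (−0.078), Scd1 (−0.044), Fads1 (−0.061), Scap (−0.051), Insig1 (−0.039) and Abcg1 (−0.067), and with upper-quartile factors Acly (−0.010), none of them called. A bound of 1.5-fold left 0 members higher and 2 lower. Same-numbered libraries of the 2 groups did not deviate together (correlations −0.03 to 0.04), so no pairing by number was seen. The correlations cover all tested genes, low counts included, and cannot exclude a weak pairing. With the replicate block 16 members fell and 3 rose, the added one being Srebf1, so that 1 of the 11 SREBP and LXR genes rose, and no other member's call changed. Leaving out 1 library at a time gave 13 to 17 lowered and 2 to 4 raised members, 9 to 12 lowered and 0 to 1 raised sterol path enzymes, 1 to 2 lowered fatty acid enzymes, and 2 to 4 lowered and 0 to 1 raised genes of the SREBP and LXR groups. The lowest counts for the last came without TGF-β1 replicate 1 or 4. The highest counts of lowered members and of lowered sterol path enzymes came without untreated replicate 1, where Idi1 was added. Signs changed in these runs for uncalled members, with log2 fold changes spanning Nr1h2 −0.049 to 0.022, Acly −0.020 to 0.023, Ebp −0.0094 to 0.12, Abcg1 −0.027 to 0.041, Mylip −0.091 to 0.012, Fads1 −0.0069 to 0.036 and Fasn −0.034 to 0.014. The negative value of Fads1 came without untreated replicate 1. The cause of these changes in call, count and sign was not tested. Low counts limit Nr1h3, Fdps and Tm7sf2, the members with the fewest counts, and the Fdps count is also uncertain because of its genome copies.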
